A study of Mus musculus with 6 samples.

Results

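The genes described here are the 10 that make up the main line of MHC class I antigen presentation: *H2-K1*, *H2-D1*, *B2m*, *Tap1*, *Tap2*, *Tapbp*, *Psmb8*, *Psmb9*, *Psmb10* and *Nlrc5*. They were chosen by symbol from the 40481 genes of the deposited table, all 10 were found there, and all 10 passed the filter on low counts. RNA was sequenced from livers of male C57BL/6 mice that carried floxed *Mttp* alleles and a Villin Cre transgene switched on by tamoxifen, with the Villin promoter active in gut epithelium. *Mttp*, which encodes the microsomal triglyceride transfer protein needed to assemble chylomicrons, was deleted in the intestine by tamoxifen given for 5 days (*Mttp-IKO*), and littermates injected with vehicle were the controls, which the labels call wild type. Mice of 12 to 16 weeks of age in both groups then ate a methionine/choline-deficient (MCD) diet for 3 weeks and were fasted for 4 h before the livers were taken. Each genotype had 3 RNA pools, each of 3 to 4 mice, so the spread between pools understates the spread between mice.

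Cells cut their own proteins into peptides with the proteasome, and the TAP transporter moves the peptides into the endoplasmic reticulum. There they are loaded onto class I heavy chains paired with beta-2 microglobulin, with tapasin as the bridge, and shown at the cell surface to cytotoxic T cells. Interferon exchanges the constitutive catalytic subunits of the proteasome for those of the immunoproteasome, and in liver the class I genes are expressed by hepatocytes as well as by resident and recruited immune cells. NLRC5 is the transactivator of the class I genes, as CIITA is of the class II genes.

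The pools held 25271585 to 36238734 reads on genes, so that 3 reads, the upper limit that a count of 0 allows, corresponded to 0.0828 to 0.119 CPM, the count relative to the library total. That limit covers counting error only. *Mttp-IKO* pool 3 stood apart in its short transcripts, and control pool 2 held RNA of striated muscle, whose 6 markers summed to 598 CPM there, to 72.6 CPM in control pool 1 and to at most 1.095 CPM in the other pools. Liver is not the tissue of the deletion, so *Mttp* reads are no check of the genotype, and the *Mttp* log2 fold change was -0.06 with a standard error of 0.272 (adjusted p = 0.926, edgeR).

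The upstream sequences of the heavy chain genes are shown first, because both carry the same pair of elements by which these genes are known to respond to NF-kappa B and to interferon. The sequences are from RefSeq on the GRCm38.p6 build, with a promoter entry for 8 of the 10 genes. The first capitals mark the kappa B letters GGGATTCCC and the second the interferon response letters TTTCACTTC, and both stretches run 5′ to 3′ on the strand of the gene.
H2-K1, minus strand, chr17:34000429-34000457: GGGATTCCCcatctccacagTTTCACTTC
H2-D1, plus strand, chr17:35262924-35262952: GGGATTCCCcatctcctcagTTTCACTTC
Of the 29 bases, 28 were alike, and the difference was A17T, with the *H2-K1* base first and positions counted from 1 at the 5′ end. The kappa B letters began 170 bases before the RefSeq start of *H2-D1*, and 124 or 110 bases before the RefSeq starts of *H2-K1*. The *H2-D1* stretch lies within the range that the deposited table gives for the gene, which begins at 35262730, before the RefSeq start, and the *H2-K1* stretch lies outside its range. Searched on both strands of the 250 bases before each start, the kappa B letters were in 0.301% of 32851 promoters and the interferon letters in 0.402%, and neither was in those of the other 6 members searched. Among the other class I heavy chain genes, *H2-Q6* and *H2-Q7* held both, and *H2-Q4*, *H2-Q10* and *H2-M3* held the interferon letters alone. These letters were chosen after the sequences had been read.

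*B2m* carries a different form of interferon element. Its stretch is printed with the letters GAAANNGAA, where N is any base, in capitals.
B2m, plus strand, chr2:122147536-122147595: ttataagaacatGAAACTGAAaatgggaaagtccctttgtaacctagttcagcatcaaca
The element began 139 bases before the start, and its letters were in 7.13% of all promoters but in no other member searched. The letters TTCNNNGAA of a gamma interferon activation site were in the *Psmb8* promoter alone among the 8, beginning 97 bases before its start, and in 7.02% of all promoters. CCAAT, the Y box of the class I and class II promoters, was in 6 of the 8 and in 33.8% of all promoters. The sites of *Tap1* and *Psmb9* are the same bases on opposite strands, counted for both genes. TGACGTCA, the cyclic AMP response element, was in none of the 8 and in 1.55% of all promoters. A match of letters is a description and not a measured binding site. *Tap1* and *Psmb9* lie head to head on chromosome 17, and 225 bases separate their RefSeq starts.

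Levels were first compared between the genes per kilobase of exon (RPKM, the CPM divided by exon length in kilobases). In control livers *B2m* was highest at 1448 ± 52.0 RPKM (SD, n = 3), followed by *H2-K1* at 402 ± 32.6 RPKM, *H2-D1* at 318 ± 7.03 RPKM, *Tapbp* at 38.0 ± 4.08 RPKM and *Psmb10* at 19.5 ± 1.86 RPKM. The lowest control pool of each of these genes lay above the highest control pool of the next. *Nlrc5* at 5.68 ± 0.612 RPKM, *Psmb8* at 5.17 ± 0.842 RPKM, *Tap1* at 4.31 ± 0.763 RPKM, *Tap2* at 4.21 ± 0.259 RPKM and *Psmb9* at 3.36 ± 0.686 RPKM came after them, and the pools of neighbours in this lower group overlapped. In *Mttp-IKO* livers the pools of *H2-K1* and *H2-D1* overlapped, and the lowest pool of *Psmb10*, at 7.33 RPKM, lay below the highest of *Nlrc5*, at 8.09 RPKM. The *Mttp-IKO* pools of *Nlrc5* were all above those of *Psmb8*, and those of *Tap2* above those of *Psmb9*. The genes of the class I molecule itself were the most abundant per length in both genotypes.

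Between the genotypes, the pools of the class I heavy chains and of *B2m* overlapped, and *Nlrc5* was not lower. The 3 immunoproteasome genes and *Tap1* were lower in each *Mttp-IKO* pool than in any control pool without passing the test. Of all genes 16.5% were lower in this way, among them *Psmb6* and *Psmb7* of the constitutive proteasome. None of the 10 genes passed an adjusted p of 0.05 with edgeR (0 of 10), against 4.01% of the 17287 genes tested, 3.09% lower and 0.92% higher. At an unadjusted p under 0.05 there were 4 of 10, all lower in *Mttp-IKO*, where 13.5% of all genes were lower and 9.53% higher at that level. DESeq2 called 1 of the 10, *Psmb10*, against 11.6% of all genes, and limma-voom called 0 against 2.48%. The log2 fold change was below 0 for 8 of the 10 genes and for 49.5% of all genes. The median log2 fold change was -0.26 over the 10 and 0.01 over all genes tested. With scaling by total counts only, 9 of the 10 were below 0. The medians were then -0.44 over the 10 and -0.17 over all genes.

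**Figure D1:**
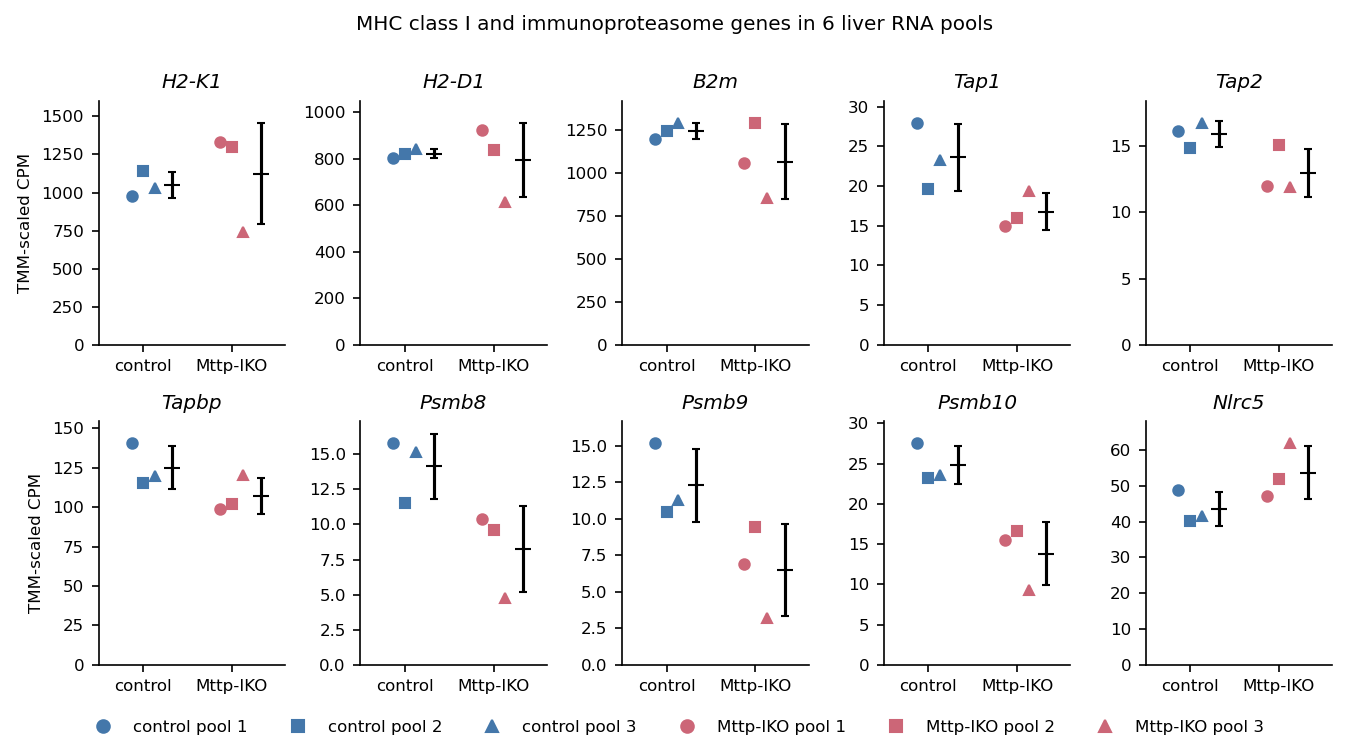
Level of each of the 10 genes (TMM-scaled CPM, linear axes from 0) in the 3 control pools (blue) and the 3 Mttp-IKO pools (red), with the mean ± SD of each group in black. The pools of Tap1, Psmb8, Psmb9 and Psmb10 do not overlap between the genotypes, and Mttp-IKO pool 3 is the lowest pool of H2-K1, H2-D1, B2m and the 3 Psmb genes.

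*H2-K1* (ENSMUSG00000061232, chromosome 17, 33996017 to 34000333), a classical class I heavy chain, had 977, 1143 and 1027 CPM in control pools 1 to 3 against 1331, 1299 and 739 CPM in *Mttp-IKO* pools 1 to 3. *Mttp-IKO* pools 1 and 2 were above every control pool and pool 3 was below them all, so the groups overlapped. This was a log2 fold change of 0.10 with a standard error of 0.257 (adjusted p = 0.852, edgeR), 0.33 without *Mttp-IKO* pool 3 and -0.080 with scaling by total counts. *H2-D1* (ENSMUSG00000073411, chromosome 17, 35262730 to 35267499), the other classical heavy chain, had 803, 822 and 839 CPM in control pools against 925, 839 and 615 CPM in those of *Mttp-IKO*. Its control pools were nearly level, and the *Mttp-IKO* pools lay on both sides of them. edgeR gave a log2 fold change of -0.05 with a standard error of 0.205 (adjusted p = 0.908), and 0.10 without *Mttp-IKO* pool 3.

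*B2m* (ENSMUSG00000060802, chromosome 2, 122147686 to 122153083), the light chain shared by all class I molecules, had 1201, 1246 and 1290 CPM in control pools against 1057, 1289 and 854 CPM in those of *Mttp-IKO*. The groups overlapped through *Mttp-IKO* pool 2. The log2 fold change was -0.22 with a standard error of 0.209 (adjusted p = 0.559, edgeR). It was -0.08 without *Mttp-IKO* pool 3, -0.38 without *Mttp-IKO* pool 2 and -0.41 with scaling by total counts. Heavy chains share sequence with their relatives, and reads that fit several genes were not counted. Of the stretches of 50 bases in their transcripts, 9.63% for *H2-K1* and 12.8% for *H2-D1* also occurred in transcripts of another gene, against none for *B2m*, *Psmb9*, *Psmb10* and *Nlrc5*, so the heavy chain levels are less certain.

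*Tap1* and *Tap2* encode the partner chains of the peptide transporter. *Tap1* (ENSMUSG00000037321, chromosome 17, 34187553 to 34197225) had 27.9, 19.6 and 23.3 CPM in control pools against 14.99, 16.02 and 19.4 CPM in those of *Mttp-IKO*. The groups did not overlap, but the highest *Mttp-IKO* pool was close below the lowest control pool. Its log2 fold change was -0.49 with a standard error of 0.187 (unadjusted p = 0.0298, adjusted p = 0.170, edgeR), and -0.61 without *Mttp-IKO* pool 3.

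*Tap2* (ENSMUSG00000024339, chromosome 17, 34203527 to 34216321) had 16.2, 14.8 and 16.7 CPM in control pools against 12.0, 15.1 and 11.9 CPM in those of *Mttp-IKO*. *Mttp-IKO* pools 1 and 3 were below every control pool, and pool 2 lay within the control range. Its log2 fold change was -0.29 with a standard error of 0.166 (adjusted p = 0.330, edgeR). *Tapbp* (ENSMUSG00000024308, chromosome 17, 33915899 to 33929288), which encodes tapasin, had 140, 115 and 120 CPM in control pools against 98.9, 102 and 120 CPM in those of *Mttp-IKO*. Pools 1 and 2 of *Mttp-IKO* were below the controls and pool 3 was within them. Its log2 fold change was -0.22 with a standard error of 0.163 (adjusted p = 0.446, edgeR). The use of strand in counting is not stated, and 22.03% of the *Tapbp* exon bases, 18.5% of those of *Tap2*, 6.80% of *Psmb8*, 5.79% of *Psmb9* and 3.87% of *Tap1* lie within exons of another gene. *Tap1* and *Psmb9* overlap each other by 212 bases on opposite strands.

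With all 6 pools, the immunoproteasome genes had the most negative log2 fold changes of the 10. Without *Mttp-IKO* pool 3, *Tap1* at -0.61 stood below *Psmb9* at -0.59 and *Psmb8* at -0.50. *Psmb10* (ENSMUSG00000031897, chromosome 8, 105935728 to 105938392), which encodes the subunit that replaces the trypsin-like one, had 27.5, 23.3 and 23.6 CPM in control pools against 15.5, 16.6 and 9.31 CPM in those of *Mttp-IKO*. Every *Mttp-IKO* pool was well below every control pool. This was a log2 fold change of -0.84 with a standard error of 0.231 (unadjusted p = 0.00632, adjusted p = 0.0829, edgeR), and the adjusted p ranged from 0.0213 to 0.273 over 18 alternative analyses. Without *Mttp-IKO* pool 3 the log2 fold change was -0.63 and the adjusted p 0.0492 (edgeR).

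*Psmb8* (ENSMUSG00000024338, chromosome 17, 34197721 to 34201454), whose product replaces the chymotrypsin-like subunit, had 15.8, 11.5 and 15.1 CPM in control pools against 10.4, 9.60 and 4.78 CPM in those of *Mttp-IKO*. The groups did not overlap, and *Mttp-IKO* pool 3 was the lowest by far. The log2 fold change was -0.77 with a standard error of 0.295 (unadjusted p = 0.0306, adjusted p = 0.172, edgeR), and -0.50 without that pool. *Psmb9* (ENSMUSG00000096727, chromosome 17, 34181988 to 34187764), whose product replaces the caspase-like subunit, had 15.1, 10.5 and 11.3 CPM in control pools against 6.93, 9.43 and 3.19 CPM in those of *Mttp-IKO*, the last from 76 reads. Again no *Mttp-IKO* pool reached the control range. edgeR gave a log2 fold change of -0.91 with a standard error of 0.362 (unadjusted p = 0.0358, adjusted p = 0.186), and -0.59 without *Mttp-IKO* pool 3.

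*Nlrc5* (ENSMUSG00000074151, chromosome 8, 94472763 to 94527272) had 48.8, 40.1 and 41.5 CPM in control pools against 47.2, 52.0 and 61.8 CPM in those of *Mttp-IKO*. *Mttp-IKO* pools 2 and 3 were above every control pool, and pool 1 lay below control pool 1. Its log2 fold change was 0.30 with a standard error of 0.163 (adjusted p = 0.305, edgeR), 0.19 without *Mttp-IKO* pool 3 and 0.12 with scaling by total counts.

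Of the 10 genes, *Tap1*, *Psmb8*, *Psmb9* and *Psmb10* (4 of 10) had pools that did not overlap, all lower in *Mttp-IKO*, where 31.0% of all genes did not overlap in either direction, 16.5% lower and 14.5% higher. Leaving out a pool added up to 2 further genes, for example *Tapbp*, lower, and *H2-K1*, higher, without *Mttp-IKO* pool 3, where 22.9% of all genes were lower and 22.4% higher without overlap.

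**Figure D2:**
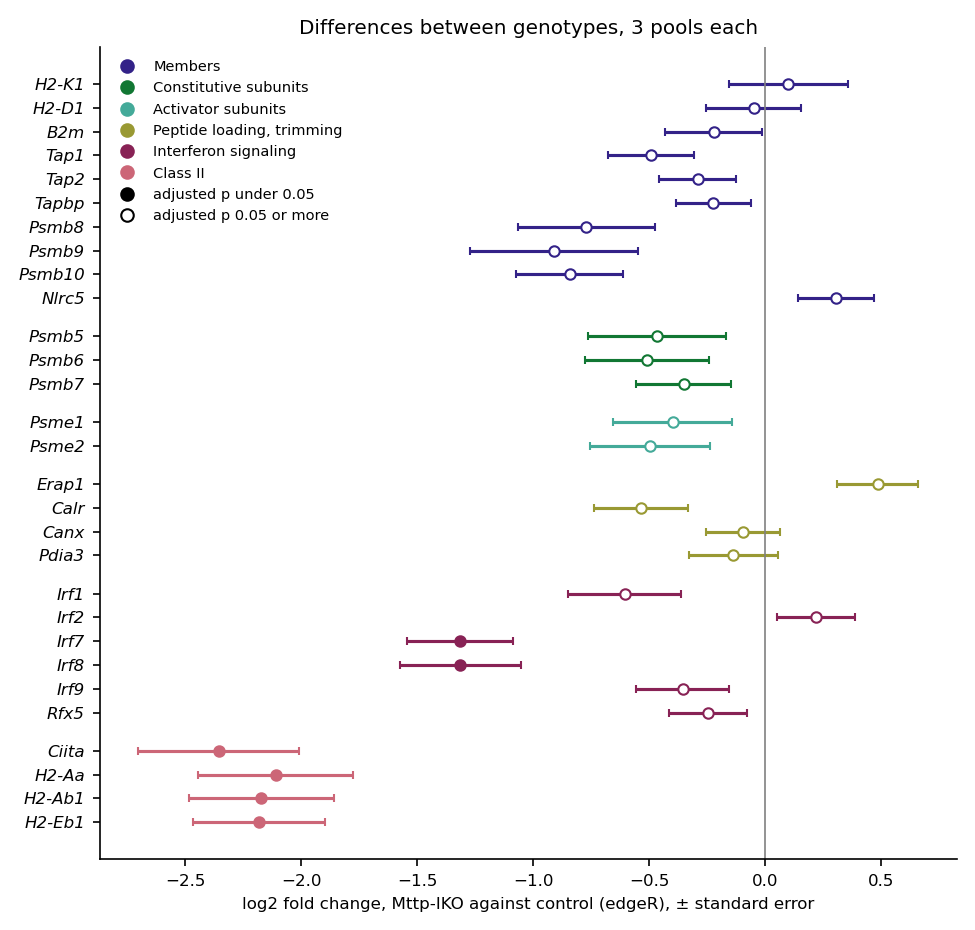
Log2 fold change of Mttp-IKO against control (edgeR, 3 pools each, bars of 1 standard error) for the 10 members and for genes of the fixed lists, with filled points at an adjusted p under 0.05. The heavy chains lie near 0, the 3 immunoproteasome genes between -0.91 and -0.77, Nlrc5 at 0.30, and Ciita and the class II chains below -2.1.

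Each immunoproteasome subunit takes the place of a constitutive one, so the levels per length of the partners were set against each other within each pool. The ratio of *Psmb10* to *Psmb7* was 0.444, 0.367 and 0.391 in control pools and 0.266, 0.315 and 0.270 in *Mttp-IKO* pools. All *Mttp-IKO* ratios were below the control ratios, *Mttp-IKO* pool 3 among the others. The mean difference was -0.50 on the log2 scale, a ratio 0.708 times that of control (exact two-sided permutation test, p = 0.1, the smallest that 3 pools against 3 allow, and 0.3 adjusted over the 3 ratios), and -0.57 to -0.42 with 1 pool left out.

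The ratio of *Psmb9* to *Psmb6* was 0.0928, 0.0630 and 0.0683 in control pools and 0.0443, 0.0783 and 0.0455 in *Mttp-IKO* pools. *Mttp-IKO* pool 2 lay within the control range. The mean difference was -0.45 on the log2 scale (exact permutation test, p = 0.3), -0.28 without control pool 1, -0.30 without *Mttp-IKO* pool 1 and -0.71 without *Mttp-IKO* pool 2. The ratio of *Psmb8* to *Psmb5* was 0.108, 0.0894 and 0.109 in control pools and 0.0721, 0.0977 and 0.0842 in *Mttp-IKO* pools, and the groups overlapped through pool 2. Its mean difference was -0.28 on the log2 scale (exact permutation test, p = 0.2) and -0.17 without *Mttp-IKO* pool 1. *Psmb5* shares 54.1% of its stretches of 50 bases with pseudogenes and other transcripts, so its level and this ratio are uncertain. With the trend of each library with gene length removed, the 3 differences were -0.50, -0.52 and -0.37 on the log2 scale for *Psmb10*, *Psmb9* and *Psmb8*.

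**Figure D3:**
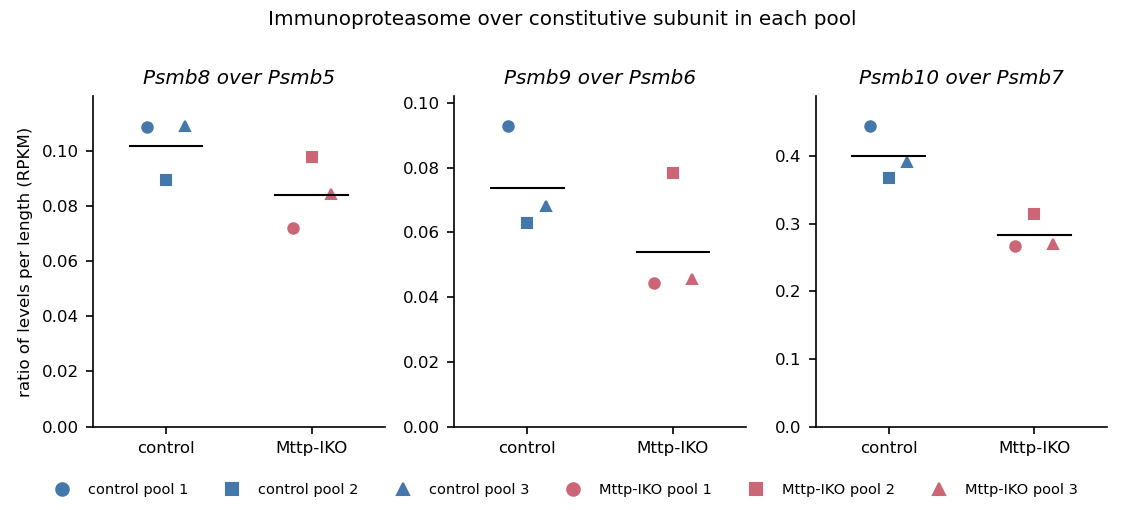
Ratio of the level per length of each immunoproteasome gene to that of the constitutive gene it replaces, in each pool (linear axes from 0), with the geometric mean of each group as a line. The 3 Mttp-IKO ratios of Psmb10 to Psmb7 (0.266 to 0.315) lie below the control ratios (0.367 to 0.444), and the groups overlap for the other subunits.

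The constitutive genes themselves had log2 fold changes of -0.47 for *Psmb5* (standard error 0.298, adjusted p = 0.386), -0.51 for *Psmb6* (0.267, 0.295) and -0.35 for *Psmb7* (0.204, 0.340, edgeR), and none passed the test. The pools of *Psmb6* and *Psmb7* were lower in *Mttp-IKO* without overlap (2 of 3), as were those of 16.5% of all genes. For *Psmb5*, *Psmb6* and *Psmb7* the log2 fold changes were -0.18, -0.25 and -0.16 without *Mttp-IKO* pool 3, and -0.83, -0.79 and -0.50 without *Mttp-IKO* pool 1. The other 11 subunits of the 20S core all had log2 fold changes below 0, against 49.5% of all genes. Their median was -0.32, and none passed the test. Among 9 activator and assembly genes none passed, the median was -0.25, and the interferon-inducible activator genes *Psme1* and *Psme2* were at -0.40 and -0.50. The most abundant of these genes, *Psmb4* and *Psma7* of the core and the activator genes *Psme4* and *Psme3*, were at -0.17, -0.28, 0.18 and 0.33.

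*Mttp-IKO* pool 3 bore on these values. Compared with *Mttp-IKO* pools 1 and 2 on the log2(CPM + 1) scale, protein-coding genes of 300 to 1000 nt of exon had a median difference of -1.12 in pool 3, those of 1000 to 2000 nt -0.46, those of 2000 to 4000 nt -0.09 and longer ones 0.19. *Psmb9* (3659 nt) differed by -1.12, *Psmb8* (2736 nt) by -0.93 and *H2-K1* (2608 nt) by -0.83, each below the median of genes of its length. *Psmb10* (1270 nt) at -0.72, *H2-D1* (2579 nt) at -0.52 and *Tap2* (3781 nt) at -0.16 were also below the median of their length. So were the constitutive *Psmb6* and *Psmb7*. *B2m* (860 nt) differed by -0.45, above the median of its length. The long genes *Tap1* and *Nlrc5* were higher in pool 3, by 0.31 and 0.31. With the length trend removed from each library, the log2 fold changes were -0.74 for *Psmb10* (adjusted p = 0.0493, edgeR), -0.74 for *Psmb8*, -0.88 for *Psmb9* and -0.09 for *B2m*. The part of RNA quality in pool 3 was not tested.

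**Figure D4:**
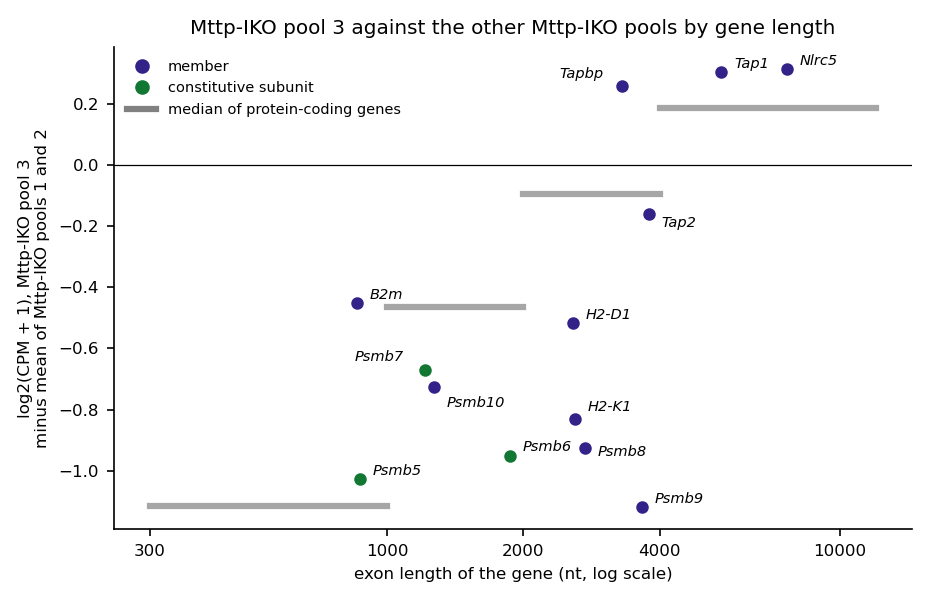
Difference of Mttp-IKO pool 3 from the mean of Mttp-IKO pools 1 and 2 in log2(CPM + 1), against exon length in nt (log axis), for the members and the constitutive subunits, with the median of protein-coding genes in 4 length classes as grey lines (the last class runs beyond the axis). Tap1, Tapbp and Nlrc5 are above 0. Psmb8, Psmb9, Psmb10, H2-K1, H2-D1 and Tap2 lie below the grey line of their length, as do Psmb6 and Psmb7.

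Other genes of the class I pathway were read in the same way, and edgeR with all 6 pools and TMM scaling called none of them. Of 12 other class I heavy chains tested, none passed and the median log2 fold change was -0.14. *H2-Q10*, which encodes a secreted class I molecule made by the liver, had 1057, 1144 and 1037 CPM in control pools against 1174, 1275 and 1128 CPM in those of *Mttp-IKO*, and the groups overlapped (log2 fold change 0.14, adjusted p = 0.662, edgeR). *H2-T23*, which encodes Qa-1, was at -0.21 (adjusted p = 0.511, edgeR). Of the 12, 2 were higher and 4 lower in *Mttp-IKO* without overlap, where 14.5% of all genes were higher and 16.5% lower. These 6 were picked after their values were seen. The lower ones were *H2-M2*, with at most 1.62 CPM in any pool, at -3.22 (adjusted p = 0.0719), *H2-T10* at -0.54, *H2-M3* at -0.54 and *H2-Q1* at -0.41 (edgeR). The higher ones were *H2-Q7* and *H2-Q6*, with log2 fold changes of 0.65 (standard error 0.202, adjusted p = 0.111) and 0.60 (0.211, 0.148, edgeR). *H2-Q7* passed with DESeq2 (0.66, adjusted p = 0.0446), which called 11.6% of all genes. It also passed without *Mttp-IKO* pool 3 (0.83, adjusted p = 0.0208, edgeR), where 864 of 17854 genes passed. *H2-Q6* passed in neither. *H2-Q7* and *H2-Q6* share sequence widely with their neighbours, at 26.4% and 32.0% of stretches of 50 bases.

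Among 11 peptide loading and trimming genes none passed the test, and the median log2 fold change was -0.14. *Erap1*, which trims peptides in the endoplasmic reticulum, was at 60.5, 73.0 and 68.3 CPM in control pools against 80.2, 90.5 and 112 CPM in those of *Mttp-IKO*. Its groups did not overlap, with *Mttp-IKO* higher (log2 fold change 0.48 with a standard error of 0.174, adjusted p = 0.152, edgeR). *Calr*, a chaperone of the loading complex, was lower without overlap (log2 fold change -0.54, adjusted p = 0.167, edgeR), and *Canx* and *Pdia3* were at -0.10 and -0.14. None of 5 class I-like genes passed, with a median of -0.11, and *Azgp1* and *Fcgrt*, the neonatal Fc receptor, were at 0.05 and -0.11.

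Genes of interferon signaling were set beside the members because interferon drives both the immunoproteasome and the class I genes. Of 25 tested, 3 were lower and 0 higher past the threshold, where 3.09% of all genes were lower, and the median log2 fold change was -0.17. The 3 were *Ciita* (log2 fold change -2.36, adjusted p = 0.0186), *Irf7* (-1.32, 0.0285) and *Irf8* (-1.32, 0.0378, edgeR).

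*Irf1*, which acts on the class I and *Psmb9* promoters, had 40.1, 31.5 and 31.0 CPM in control pools against 28.6, 23.8 and 14.98 CPM in those of *Mttp-IKO*. It was lower without overlap and did not pass (log2 fold change -0.61, adjusted p = 0.190, edgeR). *Irf9*, *Rfx5* and *Irf2* were at -0.36, -0.25 and 0.22 on the log2 scale. *Ifng*, the gene of interferon gamma, had 0, 0 and 2 reads in control pools and 0, 2 and 0 in *Mttp-IKO* pools, and *Ifnb1* had 0 reads in every pool, so a difference in either was not detectable at this depth.

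The median log2 fold change of 25 interferon-stimulated genes outside the class I pathway was -0.82. Of these, 7 were lower and 0 higher past the threshold, where 3.09% of all genes were lower and 0.92% higher. The 5 with the smallest adjusted p were *Ifit3* (-1.79, adjusted p = 0.0223), *Ifit1* (-1.66, 0.0293), *Ubd* (-2.87, 0.0332), *Oas1a* (-1.59, 0.0340) and *Isg15* (-2.20, 0.0364, edgeR). *Ubd* encodes FAT10, a ubiquitin-like modifier that targets proteins to the proteasome. The log2 fold changes of the 7 ran from -2.87 to -1.17. These 7 were picked by the threshold, so their size cannot be set against members that did not pass. The median of the whole list, -0.82, lay between *Psmb8* at -0.77 and *Psmb10* at -0.84, with *Psmb9* at -0.91. The calls in the lists depended on single pools: 28 genes passed over all lists, cell type markers included, but 3 passed without control pool 1, 4 without control pool 3, 3 without *Mttp-IKO* pool 1 and 0 without *Mttp-IKO* pool 2.

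MHC class II genes were set beside the class I genes because the transactivators are relatives. *Ciita* had 13.2, 5.55 and 10.6 CPM in control pools against 1.55, 2.09 and 2.10 CPM in those of *Mttp-IKO*, while *Nlrc5* held the levels given above. The class II chains *H2-Aa*, *H2-Ab1* and *H2-Eb1* had log2 fold changes of -2.11, -2.17 and -2.18 (adjusted p = 0.0222, 0.0184 and 0.0175, edgeR). Within pools, the ratio of *Nlrc5* to *Ciita* per length was 2.54, 4.97 and 2.68 in control pools and 20.9, 17.1 and 20.3 in *Mttp-IKO* pools. No *Mttp-IKO* ratio came near a control ratio, and the mean difference was 2.58 on the log2 scale. This ratio was added after the *Ciita* drop had been seen, so its separation restates that drop and is no test of *Nlrc5*.

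The summed heavy chains *H2-K1* and *H2-D1* over the 3 class II chains per length stood at 3.20, 8.11 and 4.82 in control pools and at 24.5, 20.97 and 19.1 in *Mttp-IKO* pools. The ratio was higher in all *Mttp-IKO* pools, pool 3 included, by 2.10 on the log2 scale, which restates the class II drop. The heavy chains over *B2m* had ratios of 0.491, 0.523 and 0.479 in control pools and 0.707, 0.549 and 0.526 in *Mttp-IKO* pools. The lowest *Mttp-IKO* ratio was barely above the highest control ratio. The mean difference was 0.24 on the log2 scale, 0.16 with the length trend removed and 0.11 without *Mttp-IKO* pool 1. These 3 ratios, that of *Nlrc5* to *Ciita* included, were added after the values had been seen, so they are descriptions.

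**Figure D5:**
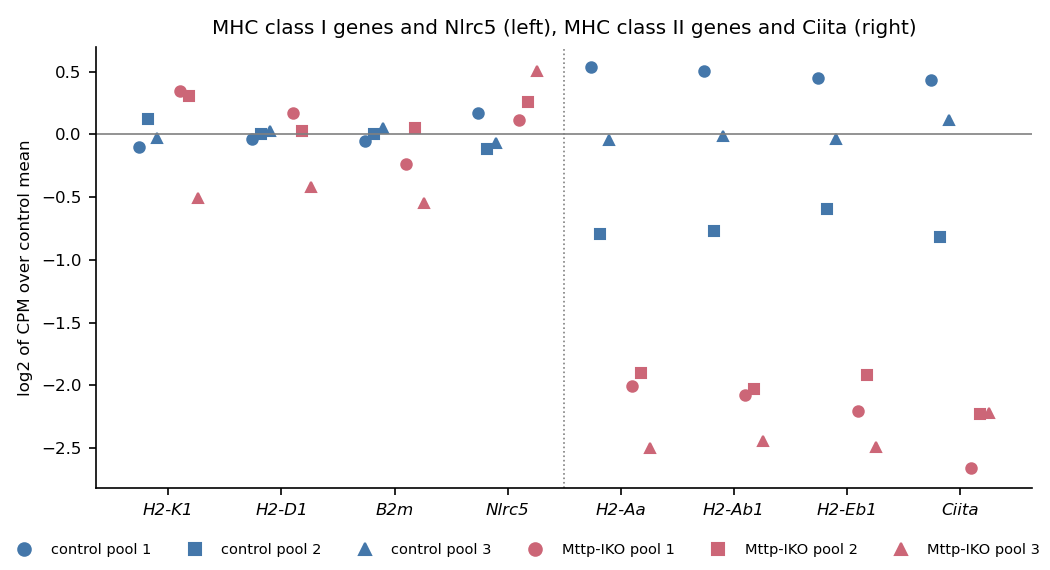
Level of each gene in each pool as log2 of its CPM over its control mean, for H2-K1, H2-D1, B2m and Nlrc5 (left) and the class II chains and Ciita (right). The Mttp-IKO pools of the class I genes and Nlrc5 lie around the control pools, with pool 3 lowest for the class I genes and highest for Nlrc5, and all Mttp-IKO pools of the class II genes lie below the controls.

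Class II chains and the immunoproteasome are rich in immune cells, whose markers also differed between the groups. For every count of markers past the threshold, the share of all genes was 3.09% lower and 0.92% higher (edgeR). Of 11 dendritic cell markers 6 were lower past the threshold, but 4 of the 6 are the 3 class II chains and *Cd74*, the class II drop itself. The 7 others summed to 28.4 to 40.4 CPM in control pools and 22.9 to 32.2 CPM in *Mttp-IKO* pools, which overlapped. Their median log2 fold change was -1.38, and 2 were lower past the threshold, *Siglech* and *Flt3* at -3.58 and -2.37. Of the 7, 4 were lower and 0 higher without overlap, where 16.5% of all genes were lower and 14.5% higher. The sum and median without the class II genes were added after the values had been seen. The markers of recruited macrophages summed to 450 to 1210 CPM and 215 to 261 CPM, and 6 of 10 were lower, for example *Itgax* at -2.78, *Cx3cr1* at -2.78 and *Ccr2* at -2.20. None of the markers in either list was at 0 in any pool. Markers of Kupffer cells, the resident macrophages of the liver, summed to 699.5 to 1170 CPM and 480.2 to 988 CPM, and 1 of 10, *Timd4*, was higher past the threshold. Of the Kupffer cell markers 7 of 10 had log2 fold changes below 0, against 49.5% of all genes, with a median of -0.62. At an unadjusted p under 0.05 (edgeR) 5 of these markers were lower and 2 higher, where 13.5% of all genes were lower and 9.53% higher. The stellate cell list had 5 of 8 lower, with *Col3a1* at -3.93, and the hepatocyte list had 0 of 8 past the threshold with a median log2 fold change of 0.73 and *Alb* at 0.95 (adjusted p = 0.157, edgeR). At an unadjusted p under 0.05 (edgeR) 5 of the 8 hepatocyte markers were higher and 0 lower. Without overlap 4 were higher and 1 lower, where 14.5% of all genes were higher and 16.5% lower. The 8 summed to 55798 to 91783 CPM in control pools and 110969 to 166541 CPM in *Mttp-IKO* pools, with *Alb* the largest part.

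The markers of class I receptors and cytotoxic cells, such as *Cd8a* and *Nkg7*, were low, at 6.44 to 16.6 CPM in sum in control pools and 4.53 to 7.51 CPM in *Mttp-IKO* pools. Of the 15 genes 10 could be tested, none passed, and 5 were at 0 in some pool. Of the 10 tested, 9 had log2 fold changes below 0, against 49.5% of all genes, with a median of -0.89. None of the B cell, neutrophil, endothelial, cholangiocyte or striated muscle markers tested passed, with 5, 4, 8, 5 and 2 genes tested. In that order their median log2 fold changes were -1.53, -0.41, -0.03, -0.22 and -7.05, with the muscle RNA of control pool 2 in the last. All 5 B cell markers were below 0, and 3 were lower and 0 higher without overlap, where 16.5% of all genes were lower and 14.5% higher. The summed B cell levels overlapped, at 19.2 to 43.9 CPM in control pools and 9.05 to 27.3 CPM in *Mttp-IKO* pools. In bulk liver, fewer cells of a type and less RNA per cell cannot be told apart, and the part of these cell types in the values of the 10 genes was not tested.

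Across the 6 pools the members did not move as 1 block. Pearson's r of log2 levels was 0.97 between *Psmb9* and *Psmb10*, 0.96 between *Psmb8* and *Psmb10*, 0.96 between *Tap1* and *Tapbp* and 0.92 between *H2-K1* and *H2-D1*. *Nlrc5* ran against the immunoproteasome, with r = -0.80 to *Psmb10*, and *H2-K1* against *Tapbp* with r = -0.67. These 6 pools share the genotype difference and the length trend of pool 3, so the values are descriptions. The genes whose pattern was most like the mean of the 10 standardized members, of 12584 considered, were *Nfe2l2* (r = 0.996), *Tcf19* (0.995), *Lfng* (0.993), *Epcam* (0.991) and *Rragc* (0.990), over 6 pools.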

How the data were processed

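The authors sequenced liver RNA pools after depletion of ribosomal RNA, aligned reads with STAR 2.5.1a to the Ensembl release 76 assembly (GRCm38) and deposited the read count of each gene from featureCounts 1.4.6-p5, as uniquely aligned unambiguous reads. The deposited CPM and RPKM follow from these counts, so the counts were tested. The table of all pools holds 40481 genes after 276 repeated lines were dropped.

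Genes were kept by filterByExpr (minimum count 10, minimum total 15), scaled by TMM (factors 0.898 to 1.11) and compared by edgeR 4.0.16 (quasi-likelihood, R 4.3.3) with Benjamini-Hochberg adjustment over 17287 genes. Printed CPM and RPKM are TMM-scaled. Samples were grouped by their labels. Named genes were all members, the 5 smallest adjusted p values of a list or its 2 most abundant genes, and fixed pathway genes, of which 1 is not reported here. Members and lists were chosen with earlier results of these data known. The test was checked on simulated counts. Shared stretches of 50 bases were sought in GENCODE M21 transcripts, and promoters in RefSeq. Alternatives included DESeq2 1.42.0, limma-voom 3.58.1, other scalings and filters, removal of length trends (loess span 0.3), a replicate block and leaving out each pool. Figures were drawn with matplotlib 3.10.9.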

Additional observations from a re-analysis of the deposited data

How the results depend on the processing

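The number of members past the threshold was 0 with TMM scaling and edgeR, and 1, *Psmb10*, with total counts (adjusted p = 0.0454), DESeq2 (0.0213), the length trend removed (0.0493, edgeR) and without *Mttp-IKO* pool 3 (0.0492), so that leaving out each pool gave 0 to 1. In the same order 1019, 1995, 872 and 864 of all genes passed, against 694 with TMM scaling and edgeR. The genes tested were 17287, and 17854 without *Mttp-IKO* pool 3. The median log2 fold change of the members was -0.44 with total counts, against -0.26, and -0.40 to -0.23 with a pool left out. Over all genes tested the median was -0.17 with total counts, against 0.01. Signs turned for 2 members: *H2-K1* was at -0.080 with total counts and at -0.040 to 0.33 with a pool left out, and *H2-D1* at -0.18 to 0.10. The other 8 members kept their sign in all 18 alternatives. Over all genes 694 passed, 1995 with DESeq2, 428 with limma-voom and 0 to 892 with a pool left out. There were 0 without *Mttp-IKO* pool 2 (edgeR, 3221 at an unadjusted p under 0.05), 24 without control pool 1, 21 without control pool 3 and 55 without *Mttp-IKO* pool 1. Of the genes in the fixed lists 28 passed, 54 with DESeq2 and 0 to 33 with a pool left out. The cause was not tested. With the replicate number as a block, 0 members, 27 genes of the lists and 592 genes in all passed, and *Psmb10* was at -0.88 (adjusted p = 0.0793, edgeR). The block together with the length trend removed gave 0 members, with *Psmb10* at an adjusted p of 0.0602. The deviations of the pools from their group means correlated at 0.17, 0.15 and 0.00 between same-numbered pools of the 2 genotypes. Between pools of different number they correlated at -0.19 to 0.01. The numbers were not taken to pair the samples. With 3 pools a group and counts as low as 76 reads for *Psmb9*, small differences in the low members were not detectable.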
